A study of Mus musculus with 35 samples.

Results

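Expression of 10 genes of the meninges and the cord surface was followed in 35 RNA-seq libraries from the medulla and cervical spinal cord of 18 mice. The genes were *Igf2*, *Slc6a13*, *Slc22a6*, *Dcn*, *Lum*, *Ogn*, *Prg4*, *Col1a1*, *Col1a2* and *Myoc*, and all 10 were found among the 35976 gene symbols counted in each library. They were selected on their known roles and on how these same counts varied between libraries, so the way they vary together is given as a description with no test. The p values below come from fits across all genes and are not independent evidence about these 10.

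SCA7 mice carry a knock-in of 266 CAG repeats in an allele of the ataxin-7 gene *Atxn7* and 5 in the other (SCA7 266Q/5Q), and the WT C57Bl/6J mice were littermates. Mice of both sexes were used, and the tissue was flash frozen. At 9 weeks each genotype had 5 mice and at 5 weeks 2 mice, all with a library from each tissue. At postnatal day 8 (P8) both tissues came from 2 SCA7 mice, whereas WT had 2 libraries labelled medulla and only 1 labelled cervical spinal cord. Knock-in and normal *Atxn7* reads are not told apart in counts per gene, so the genotype labels could not be checked from them.

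The meninges are sheets of fibroblasts, blood vessels and immune cells that wrap the brain and spinal cord. Their fibroblasts lay down collagen and small proteoglycans, secrete growth factors such as *Igf2*, and in the arachnoid layer carry transporters that move organic anions and transmitters between blood and cerebrospinal fluid. *Myoc* is known from astrocytes and other cells at the surface of the cord.

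Sequencing depth was of 2 kinds. The 15 deep libraries held between 28969003 and 99353286 counts each, and the 20 shallow libraries between 95917 and 396417. Levels are given as counts per 1000000 of the library total (CPM). Where no count was seen, the level may still be as high as 0.104 CPM in a deep library or 31.3 CPM in a shallow one (3 counts at the lowest totals, counting error only), so that most of these genes were at the limit of counting in shallow libraries. *Slc6a13* and *Lum* had at most 3 counts in all 20 shallow libraries, and *Slc22a6*, *Prg4* and *Ogn* in 19 of 20. Only *Igf2* and *Col1a2* had a count in every shallow library.

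The tissue labels at P8 went against a position marker. *Hoxc6*, a homeobox gene of the cervical and more caudal cord, lay between 47.0 and 66.9 CPM in the 4 libraries labelled P8 medulla, against 0 to 8.25 CPM in the 14 older medulla libraries. In the 3 libraries labelled P8 cervical cord it lay between 0 and 2.96 CPM, where the older cervical cord had a median of 25.3 CPM. P8 libraries are therefore written as labelled, and each comparison with them is given against both tissue labels at 9 weeks.

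The genes lie on 7 chromosomes of the mouse genome (GRCm38.p6 positions). *Dcn* (chromosome 10, 97479500 to 97518163) and *Lum* (chromosome 10, 97565501 to 97572703), both of the small leucine-rich proteoglycan family, are 47337 bases apart on the same strand. *Igf2* lies on chromosome 7 from 142650768 to 142666816, *Col1a1* on chromosome 11 from 94936224 to 94953042, and *Myoc* on chromosome 1 from 162639150 to 162649694. *Prg4* (chromosome 1, 150449412 to 150466221) overlaps *Tpr*, a nuclear pore gene with 73681 counts over all libraries against 3334 for *Prg4*. *Igf2*, *Slc22a6*, *Myoc* and *Ogn* also overlap other annotated genes. The sources used here do not say whether counting used the strand, so reads of overlapping genes may be mixed.

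Promoters in a RefSeq table of GRCm38.p6 were matched for 6 of the 10 genes. Of the 250 bases before each start, searched on both strands, the letters TATAAA were found for *Myoc* and *Ogn* and in 12.4% of the 32851 promoters of the table. CCAAT was found for *Igf2*, *Slc6a13*, *Slc22a6*, *Myoc* and *Col1a2* and in 33.8% of promoters. TAAACA, the core letters of a fork head site, was found for none of the 6 genes and in 12.0% of promoters. The 120 bases before the start are shown for a gene from each side of the pattern described below, *Myoc*, a collagen and a transporter, with the motif letters in capitals, CCAAT in *Slc22a6* overlapping its match on the other strand. These are letter matches only.
Myoc, chr1:162639030-162639149, plus strand: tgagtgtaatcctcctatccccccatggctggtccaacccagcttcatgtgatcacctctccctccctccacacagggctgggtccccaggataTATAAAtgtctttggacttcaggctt
Col1a2, chr6:4505498-4505617, plus strand: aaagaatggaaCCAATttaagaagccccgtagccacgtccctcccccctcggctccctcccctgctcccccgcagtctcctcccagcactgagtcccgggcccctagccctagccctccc
Slc22a6, chr19:8617876-8617995, plus strand: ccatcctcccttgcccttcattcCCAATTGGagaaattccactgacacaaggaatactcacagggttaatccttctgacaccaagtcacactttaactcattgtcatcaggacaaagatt

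In the deep libraries these genes ranged widely. *Igf2* lay between 15.3 and 583 CPM (median 108), *Col1a1*, a chain of type I collagen, between 8.14 and 809 CPM (median 25.0), and *Col1a2*, its partner chain, between 34.2 and 673 CPM (median 61.6). The highest level of *Igf2*, *Dcn*, *Lum*, *Col1a1* and *Col1a2* was in a single library, WT replicate 2 labelled P8 medulla, and that of *Slc6a13*, *Prg4*, *Myoc* and *Ogn* in WT replicate 5 of the 9-week cervical cord. *Prg4*, which encodes the surface lubricant lubricin, went from 0.0338 to 47.6 CPM, and *Slc22a6*, an organic anion transporter, from 0 to 11.2 CPM. *Myoc*, which encodes the secreted glycoprotein myocilin, lay between 5.51 and 77.8 CPM.

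Per kilobase of exon, which allows levels of different genes to be set side by side, *Myoc* and *Igf2* led in WT mice at 9 weeks. In the 2 deep WT medulla libraries *Myoc* lay at 10.98 and 19.2 CPM per kilobase and *Igf2* at 9.55 and 18.8. In the 2 deep WT cervical libraries *Myoc* lay at 26.1 and 37.5 CPM per kilobase and *Igf2* at 10.4 and 73.9. *Slc22a6* had the lowest mean of the 10 in both, at 0.540 and 1.39 in the medulla and 0.0693 and 2.49 in the cervical cord, although *Prg4* was lower, at 1.32, in a medulla library. The order of *Myoc* and *Igf2* therefore differed between the 2 deep cervical libraries.

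**Figure D1:**
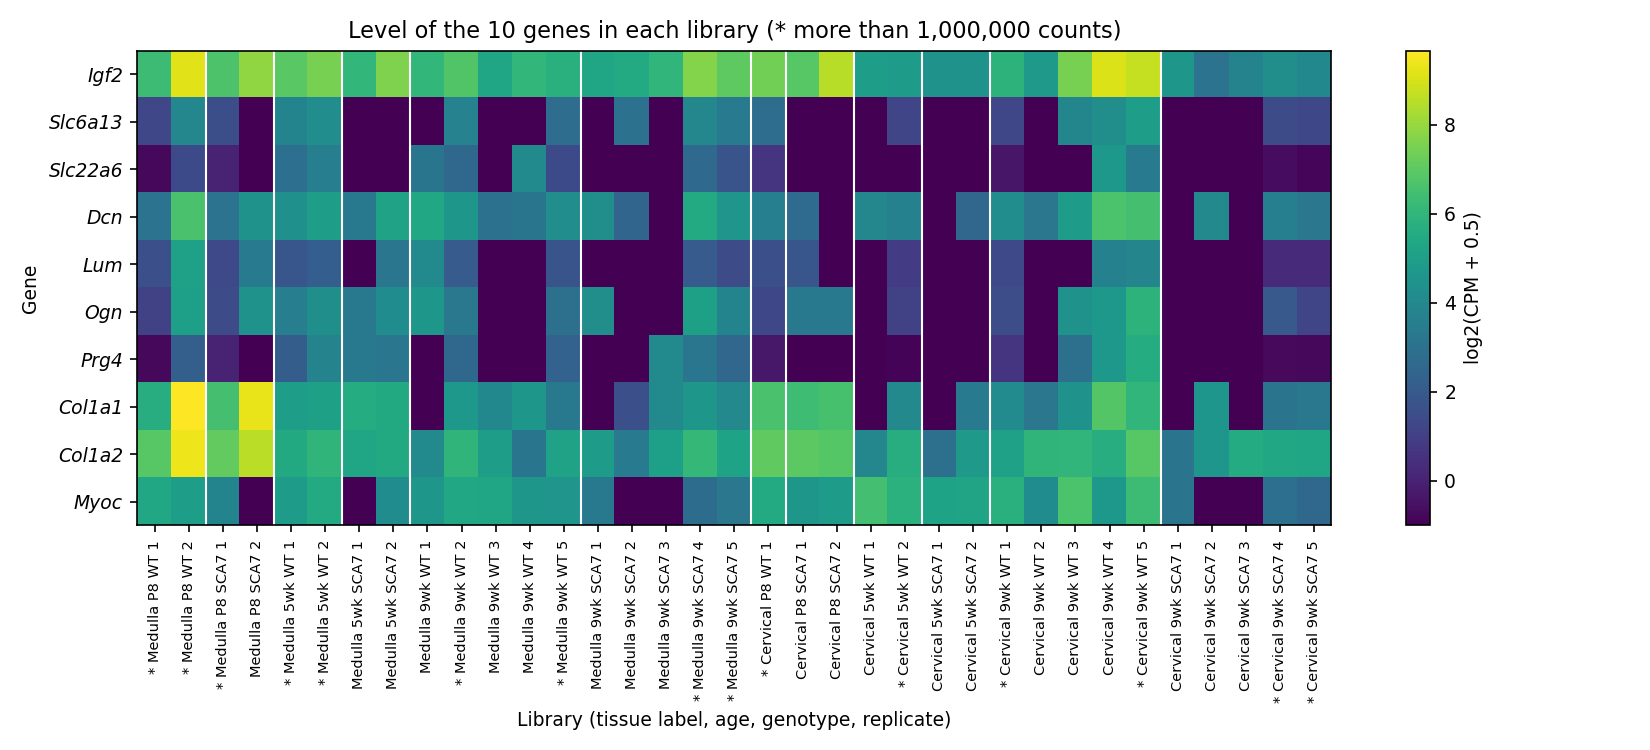
Level of each of the 10 genes (rows) in each of the 35 libraries (columns, grouped by tissue label, age and genotype), as log2(CPM + 0.5); an asterisk marks the 15 libraries with over 1000000 counts. Columns of WT cervical cord at 9 weeks range from low to high in most rows, columns of SCA7 cervical cord at 9 weeks are low in most rows but not for *Col1a2*, and the *Myoc* row is low in the 9-week SCA7 columns of both tissues.

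The levels of many of these genes were correlated from library to library. Over the 15 deep libraries the 45 pairs of genes had a median Pearson's r of 0.705 between log2 levels, with a range from 0.08 to 0.97, and 12 pairs were above 0.8. *Col1a1* and *Col1a2* had the highest r, 0.97, and *Slc6a13* and *Slc22a6* an r of 0.96. The lowest was that of *Slc22a6* and *Col1a2*, at 0.08, and both collagen chains had r of at most 0.34 with *Slc6a13*, *Slc22a6*, *Prg4* and *Ogn*. Pairs with *Myoc* had a median of 0.27, and none was above 0.44. Some of these libraries come from the same mouse and they differ in age, tissue and genotype, so the correlations carry no test.

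Among the 8 deep libraries of 9 weeks, with each tissue centred on its mean, the pairs were closer. The 36 pairs without *Myoc* had r between 0.844 and 0.995, with a median of 0.938, whereas the 9 pairs with *Myoc* had a median of 0.616 and a range from 0.37 to 0.76. Against the mean of the other 9 genes, *Lum*, *Prg4*, *Dcn* and *Slc22a6* each had r of 0.98, *Col1a2* of 0.92, *Ogn* of 0.90 and *Myoc* of 0.62. Over all 15 deep libraries *Col1a2* had r of 0.52 with the mean of the others and *Col1a1* of 0.60.

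**Figure D2:**
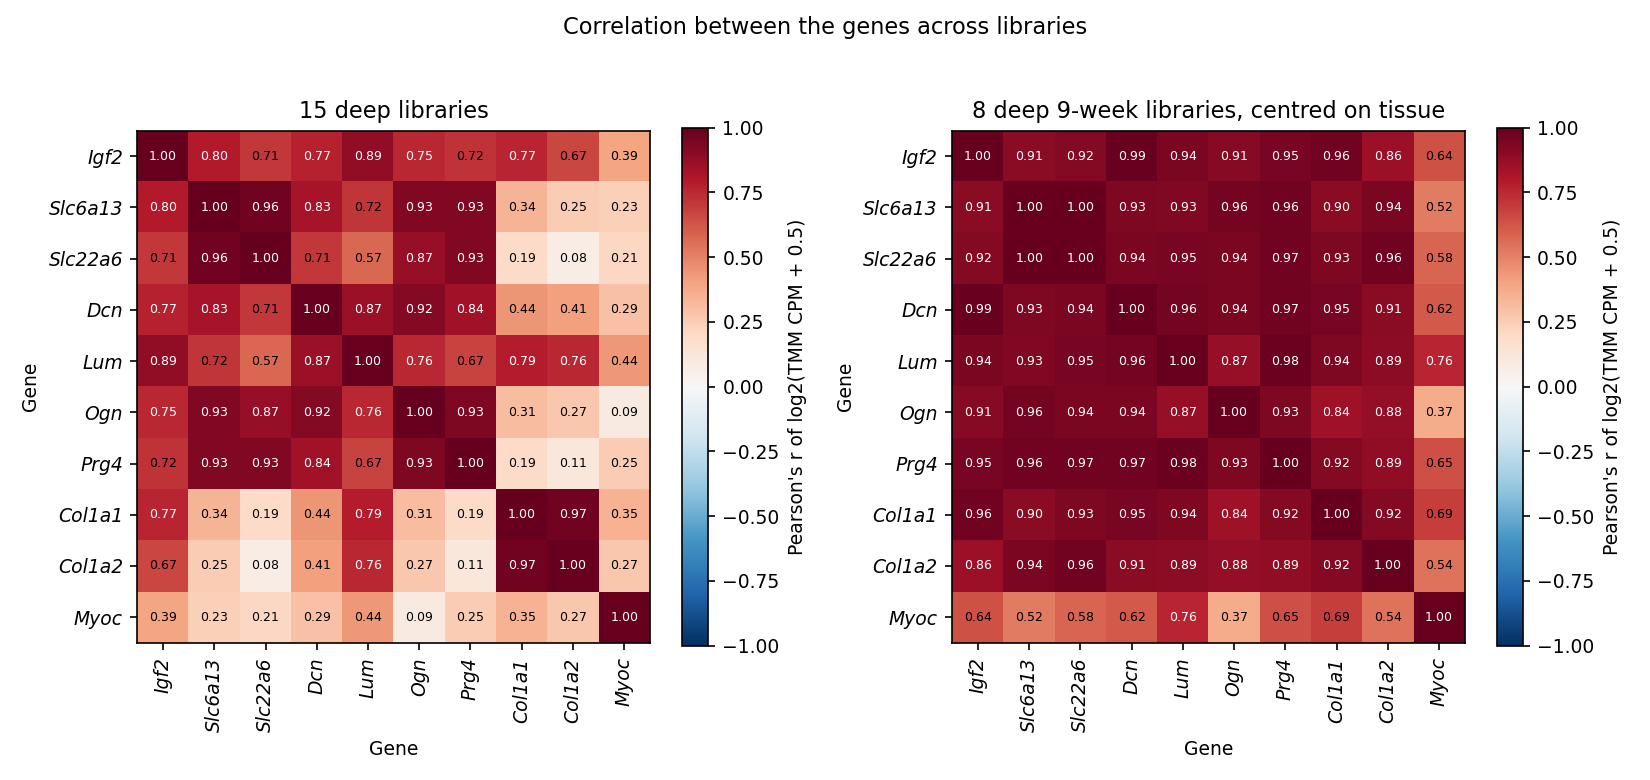
Pearson's r between the log2(TMM-normalized CPM + 0.5) values of each pair of genes, over the 15 deep libraries (left) and over the 8 deep 9-week libraries centred on their tissue (right). On the right every pair without *Myoc* is at 0.844 or above, and the row of *Myoc* lies between 0.37 and 0.76.

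Deep libraries of the same group differed in these genes more than in most. Between the 2 deep WT libraries of the 9-week cervical cord, replicates 1 and 5, 9 of the 10 genes differed by more than 2-fold, against 12.3% of 18311 genes. Between the 2 deep WT libraries labelled P8 medulla it was also 9 of 10, against 3.97% of 20539 genes. Between the 2 deep SCA7 libraries of the 9-week cervical cord it was 0 of 8 genes with enough counts, against 0.480% of 18530 genes. In the 9-week medulla it was 2 of 10 in WT, against 0.664% of 18213 genes, and 1 of 10 in SCA7, against 0.807% of 18593 genes. In the 5-week WT medulla it was 1 of 10, against 2.62% of 18408 genes.

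Genes outside the 10 with the most similar pattern were ranked by their r with the mean of the 10 over 18272 genes. Over the 15 deep libraries they were *Islr* (0.97), *Pcolce*, *Ddr2*, *Foxc1*, *Lyve1*, *Arhgap29*, *Osr1* and *Cd163* (0.93). Over the 8 deep 9-week libraries centred on tissue they were *Islr* (0.99), *Gxylt2*, *Efemp1*, *Pcolce*, *Mrc1*, *Lyz2*, *Slc13a4* and *Crabp2* (0.98). *Pcolce* encodes an enhancer of collagen processing, *Ddr2* a collagen receptor and *Foxc1* a transcription factor of meningeal development. *Lyve1*, *Cd163*, *Mrc1* and *Lyz2* are known from macrophages at the borders of the brain.

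Lists of other cell types were set beside the 10 genes in the same way. For each list the log2 of its summed level was used, which follows the most abundant genes of the list. Over the 8 deep 9-week libraries centred on tissue, the sum of 33 other meningeal genes had r of 0.97 with the mean of the 10 genes. The sum of 8 Schwann cell and nerve root genes had 0.90, and that of 8 neuron genes 0.78. Mural cell genes were at 0.69, choroid plexus genes at 0.64, astrocyte genes at 0.55 and skeletal muscle genes at -0.06. Over all 15 deep libraries the Schwann cell list had r of 0.75 and the meningeal list 0.60. Schwann cells myelinate the nerve roots, which lie outside the cord itself.

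The sum of the 9 genes without *Myoc* put these libraries in order. In the 9-week cervical cord it was 137, 107, 338, 917 and 857 CPM in WT replicates 1 to 5 and 32.2, 70.6, 59.6, 85.1 and 76.7 CPM in SCA7 replicates 1 to 5. WT replicates 3, 4 and 5 were high, and the lowest WT library was above the highest SCA7 library, although its 95% Poisson interval, from 12 counts, reaches from 55.3 to 187 CPM. In the 9-week medulla it was 173, 256, 92.5, 124 and 140 CPM in WT and 103, 70.6, 128, 407 and 235 CPM in SCA7, and the genotypes overlapped.

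**Figure D3:**
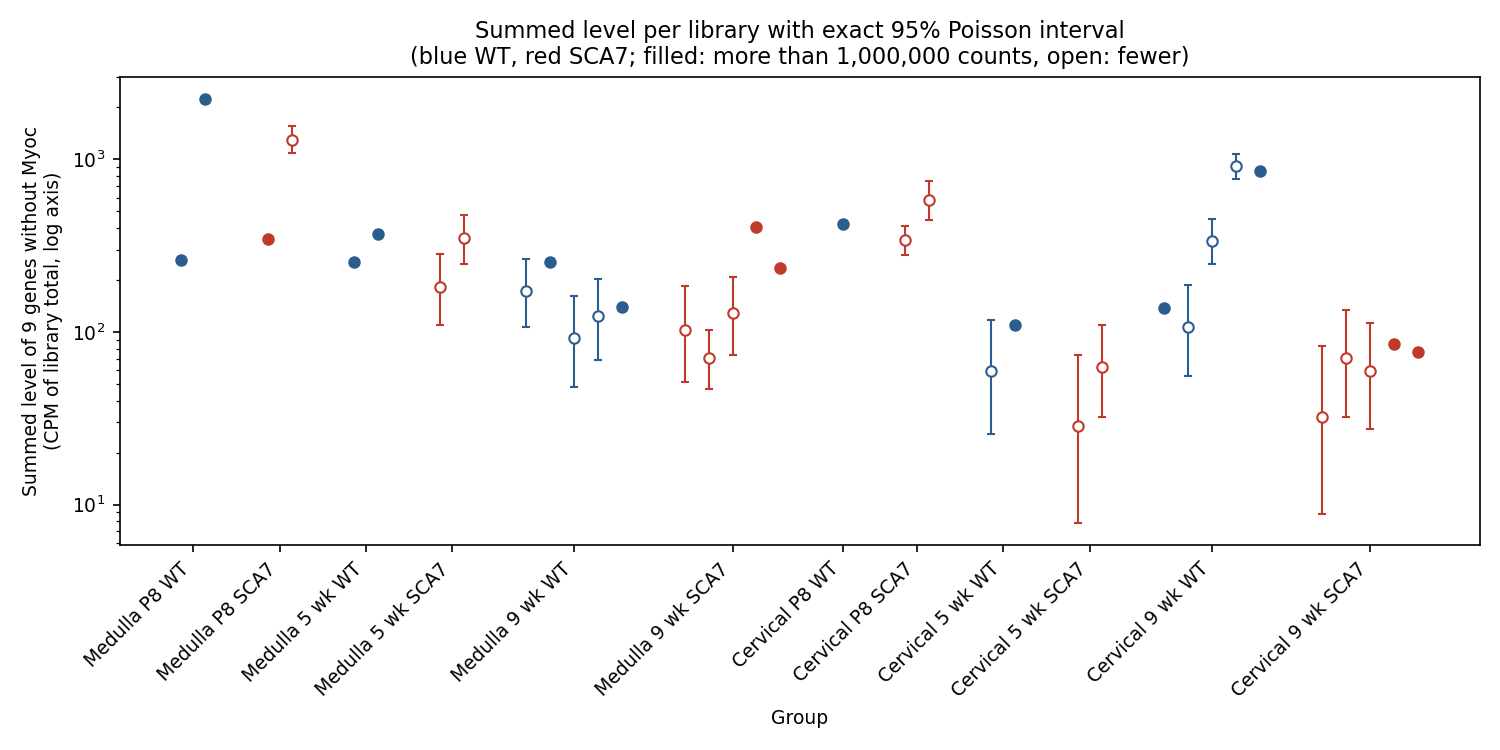
Summed level of the 9 genes without *Myoc* in each library (CPM, log axis) by tissue label, age and genotype; bars are 95% Poisson intervals of the summed count. WT cervical libraries at 9 weeks spread from 107 to 917 CPM and SCA7 cervical libraries lie between 32.2 and 85.1 CPM.

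In the cervical cord at 9 weeks 9 of the 10 genes were lower in SCA7 mice. In bulk tissue fewer cells of a type and less RNA per cell cannot be told apart. The quasi-likelihood test of edgeR with Benjamini-Hochberg adjustment called these 9 at an adjusted p under 0.05, against 1.45% of the 19263 genes tested. The median log2 fold change of SCA7 over WT was -3.67, where that of all genes was -0.02. The call that was missing was *Col1a2*, at -1.30 (standard error 0.36, adjusted p = 0.0815). DESeq2 called 6 of the 10, *Igf2*, *Dcn*, *Slc6a13*, *Prg4*, *Myoc* and *Col1a2*, and 266 of all genes. *Col1a2* was thus called by DESeq2 (adjusted p = 0.0426) and not by edgeR, and *Slc22a6*, *Ogn*, *Lum* and *Col1a1* by edgeR and not by DESeq2.

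*Igf2*, the growth factor, was at 59.4, 26.8, 180, 549 and 423 CPM in WT replicates 1 to 5 and at 24.2, 7.85, 13.2, 18.5 and 15.3 CPM in SCA7 replicates 1 to 5. The genotypes did not overlap, but the closest values, 26.8 and 24.2 CPM, were 3 counts each. Its log2 fold change was -4.39 (standard error 0.64, adjusted p = 0.00142 by edgeR). The 3 shallow libraries of each genotype pooled gave 282 CPM in WT (95% Poisson interval 233 to 338) and 14.9 CPM in SCA7 (5.47 to 32.4).

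The transporters were measured mainly in deep libraries. *Slc6a13*, which takes up GABA and taurine, was at 1.90, 0, 14.4, 18.7 and 30.5 CPM in WT and at 0, 0, 0, 2.32 and 1.96 CPM in SCA7, where edgeR gave a log2 fold change of -3.18 with a standard error of 0.74 (adjusted p = 0.0310). Deep WT replicate 1 was thus level with the deep SCA7 libraries. *Slc22a6* was at 0.276, 0, 0, 25.0 and 9.93 CPM in WT, and in SCA7 it had 4 and 2 counts in the deep libraries (0.136 and 0.0577 CPM) and none in the shallow ones. Its fitted value of -6.08 on the log2 scale (standard error 1.37, adjusted p = 0.0286 by edgeR) rests on those few counts and is no bound.

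The small leucine-rich proteoglycans bind and space collagen fibrils. *Dcn*, which encodes decorin, was at 18.4, 8.92, 28.8, 99.8 and 90.9 CPM in WT and at 0, 15.7, 0, 11.5 and 8.88 CPM in SCA7. WT replicates 4 and 5 were high and the genotypes overlapped, with -2.91 on the log2 scale (standard error 0.61, adjusted p = 0.0179 by edgeR). *Ogn*, which encodes osteoglycin, was at 2.38, 0, 21.6, 25.0 and 59.0 CPM in WT and at 0, 0, 0, 3.41 and 1.82 CPM in SCA7 (-3.69, standard error 0.77, adjusted p = 0.0179). *Lum*, which encodes lumican, was at 2.04, 0, 0, 12.5 and 13.9 CPM in WT and at 0, 0, 0, 0.715 and 0.692 CPM in SCA7 (-3.65, standard error 0.78, adjusted p = 0.0203). In both *Ogn* and *Lum* the high WT libraries were again replicates 4 and 5, joined by replicate 3 for *Ogn*.

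Lubricin and the collagen chains differed in size. *Prg4* was at 1.07, 0, 7.19, 25.0 and 47.6 CPM in WT and had 3 counts in each deep SCA7 library (0.102 and 0.0865 CPM) and none in the shallow ones. Its fitted log2 fold change was -7.86 (standard error 1.26, adjusted p = 0.00418 by edgeR) and is no bound either. *Col1a1* was at 17.3, 8.92, 21.6, 112 and 64.7 CPM in WT and at 0, 23.5, 0, 8.14 and 9.23 CPM in SCA7, with -2.85 on the log2 scale (standard error 0.67, adjusted p = 0.0357 by edgeR). *Col1a2* was at 34.2, 62.5, 64.7, 49.9 and 117 CPM in WT and at 8.06, 23.5, 46.3, 40.3 and 38.6 CPM in SCA7, so that deep WT replicate 1 lay below both deep SCA7 libraries.

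*Myoc* was lower in SCA7 mice without following the order of the other 9. It was at 54.1, 17.8, 101, 25.0 and 77.8 CPM in WT replicates 1 to 5 and at 8.06, 0, 0, 6.95 and 5.51 CPM in SCA7 replicates 1 to 5. The lowest WT library, at 2 counts, was above every SCA7 library. WT replicate 4, the highest in the sum of the other genes, was the second lowest in *Myoc*, at 4 counts, so its rank is uncertain. In the deep WT libraries, replicates 1 and 5, *Myoc* had the order of the sum. The log2 fold change was -3.74 (standard error 0.50, adjusted p = 0.000386 by edgeR). In the shallow libraries pooled, WT had 20 counts (48.6 CPM, 95% Poisson interval 29.7 to 75.1) and SCA7 had 1 (2.48 CPM, 0.0629 to 13.8). *Igf2* and *Myoc* were the only 2 of the 10 whose genotypes did not overlap, where 0.369% of the genes tested had every SCA7 library below every WT library.

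**Figure D4:**
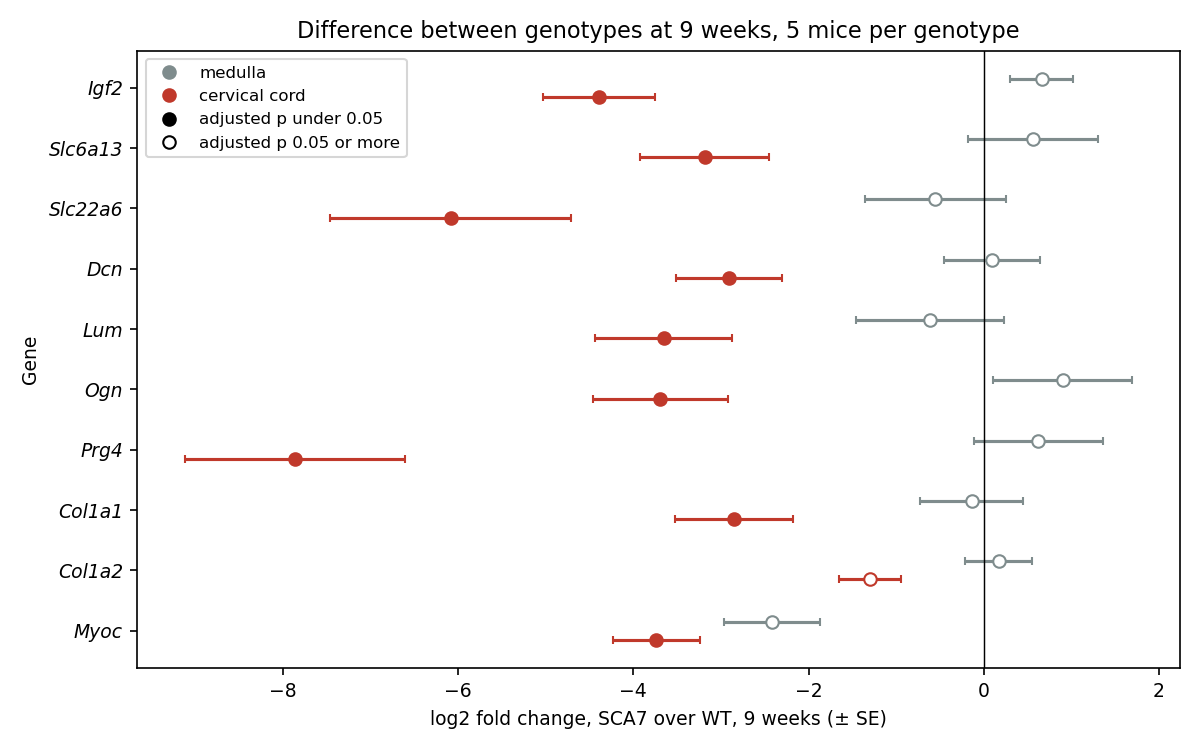
Log2 fold change of SCA7 over WT at 9 weeks for each gene (± standard error, 5 mice per genotype) in the medulla and the cervical cord; filled points have an adjusted p under 0.05. In the cervical cord all 10 points are below 0 and 9 are filled, and in the medulla none is filled and *Myoc* stands apart at -2.42.

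Schwann cell genes were highest in WT replicates 4 and 5. The 8 Schwann cell and nerve root genes summed to 57.0, 44.6, 79.1, 181 and 157 CPM in WT replicates 1 to 5 of the 9-week cervical cord and to between 46.3 and 65.8 CPM in SCA7, and 2 of the 8 were called lower, among them *Pmp2*. Without WT replicates 4 and 5, an alternative chosen after the data had been seen, 3 of 9 genes were called, while calls over all genes went from 280 of 19263 to 384 of 18954 (2.03% of genes tested). These were *Igf2* at -2.78 (adjusted p = 0.000358), *Prg4* at -3.94 (adjusted p = 0.00935) and *Myoc* at -3.75 (adjusted p = 2.28e-05 by edgeR). The median over the 9 genes was then -1.41, and *Slc22a6* could not be tested. Without WT replicate 5 alone 5 genes were called, without SCA7 replicate 4 alone 5, and without SCA7 replicate 5 alone 4. Calls over all genes are not given for these single omissions. The part of kept root or surface tissue in the difference was not tested.

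Other lists of surface tissue were lower with the 10 genes in the cervical cord. Of 33 other meningeal fibroblast and arachnoid barrier genes 16 were called, all lower, and all 33 log2 fold changes were negative, with a median of -2.40. They included the transporters *Slc47a1* (-4.62) and *Slc13a4* (-5.07), the proteoglycans *Fmod* (-3.12) and *Bgn* (-2.29), the matrix calcification inhibitor *Mgp* (-3.73), the retinoic acid enzyme *Aldh1a2* (-3.59) and *Ptgds* (-2.08), a prostaglandin synthase abundant in cerebrospinal fluid. Of 29 collagen and matrix genes 5 were lower, *Col3a1* (-3.29), *Fn1* (-2.46), *Pcolce* (-3.11), *Mfap4* (-4.08) and *Prelp* (-2.22), with a median of -0.85. Of 14 insulin-like growth factor genes 3 were lower, the binding proteins *Igfbp5* (-2.58) and *Igfbp6* (-4.82) and the imprinted RNA *H19* (-5.68), which lies beside *Igf2*. *H19* did not follow *Igf2* over the WT libraries. It was at 23.3, 0, 14.4, 0 and 1.88 CPM in WT replicates 1 to 5, and the 14.4 CPM rests on 2 counts. *Igf2* was highest in replicates 4 and 5. The RNA-binding protein gene *Igf2bp3* was higher (5.96).

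The lists of other cell types also had negative medians there. Called lower were 5 of 6 red blood cell genes, 5 of 8 astrocyte genes, 5 of 8 oligodendrocyte genes and 3 of 8 mural cell genes. No gene of the endothelial, neuron, ependymal, skeletal muscle or bone and cartilage lists was called. Still, all 8 endothelial (median -1.28), all 8 skeletal muscle (-3.02), all 6 ependymal (-0.89) and all 6 tested bone and cartilage values (-0.88) were negative, and 4 of 8 neuron values. The muscle gene *Acta1* was at 137 CPM in deep WT replicate 1, 2.90 in deep WT replicate 5, and 8.62 and 1.41 in deep SCA7 replicates 4 and 5. In shallow libraries it was higher in SCA7 (72.5, 102 and 53.0 CPM) than in WT (8.92, 21.6 and 12.5 CPM). The astrocyte list summed to between 2058 and 6277 CPM in WT and between 1217 and 2287 CPM in SCA7, with *Gfap* at -2.28 and *Aqp4* at -1.42. The red blood cell list summed to between 53.5 and 351 CPM in WT and between 0 and 54.6 CPM in SCA7. The part of these cells in the lower levels of the 10 genes was not tested.

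In the medulla at 9 weeks none of the 10 genes was called by edgeR, where 0.11% of the 19157 genes tested were, and 1 of the 10, *Myoc*, had an unadjusted p under 0.05. DESeq2 called 1, also *Myoc*, and 118 of all genes. The median log2 fold change of the 10 was 0.13, and 6 were positive, up to 0.90 for *Ogn* (standard error 0.79). *Igf2* was at 65.7, 108, 38.5, 66.0 and 54.6 CPM in WT and at 37.5, 45.4, 64.1, 204 and 128 CPM in SCA7. SCA7 replicates 4 and 5 were the highest of the 10 libraries, the other SCA7 libraries lay within the WT range or just below it, and the log2 fold change was 0.66 (standard error 0.35, adjusted p = 0.803 by edgeR). Those replicates were the only deep SCA7 libraries there, and SCA7 replicates 1 to 3 held 4, 18 and 8 counts of *Igf2*. The deep WT libraries were replicates 2 and 5, at 108 and 54.6 CPM. *Ogn* was at 24.6, 9.17, 0, 0 and 7.14 CPM in WT and at 18.8, 0, 0, 33.3 and 13.5 CPM in SCA7. *Lum* was at 16.4, 3.68, 0, 0 and 2.87 CPM in WT and at 0, 0, 0, 3.72 and 2.29 CPM in SCA7, and its highest value rests on 2 counts. Both genes overlapped between genotypes.

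*Myoc* in the medulla was at 24.6, 39.8, 38.5, 24.7 and 22.8 CPM in WT replicates 1 to 5 and at 9.39, 0, 0, 6.22 and 8.97 CPM in SCA7 replicates 1 to 5. All 5 SCA7 libraries lay under the lowest WT library, which held for no other of the 10 genes and for 0.647% of the genes tested. The log2 fold change was -2.42 (standard error 0.55, adjusted p = 0.112 by edgeR). Over the alternatives the adjusted p ranged from 0.000204 to 0.622 and the log2 fold change from -2.77 to -2.14. The shallow libraries pooled held 11 counts in WT (29.5 CPM, 95% Poisson interval 14.7 to 52.8) and 1 in SCA7 (1.59 CPM, 0.0403 to 8.87).

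No gene of the meningeal, matrix or insulin-like growth factor lists was called in the medulla, with medians between 0.13 and 0.34. All 8 astrocyte genes were negative there, with a median of -1.15, and *Slc1a2* and *Gja1* were called lower. The list summed to between 2342 and 4032 CPM in WT and between 298 and 1613 CPM in SCA7. The part of astrocytes in the level of *Myoc* was not tested.

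**Figure D5:**
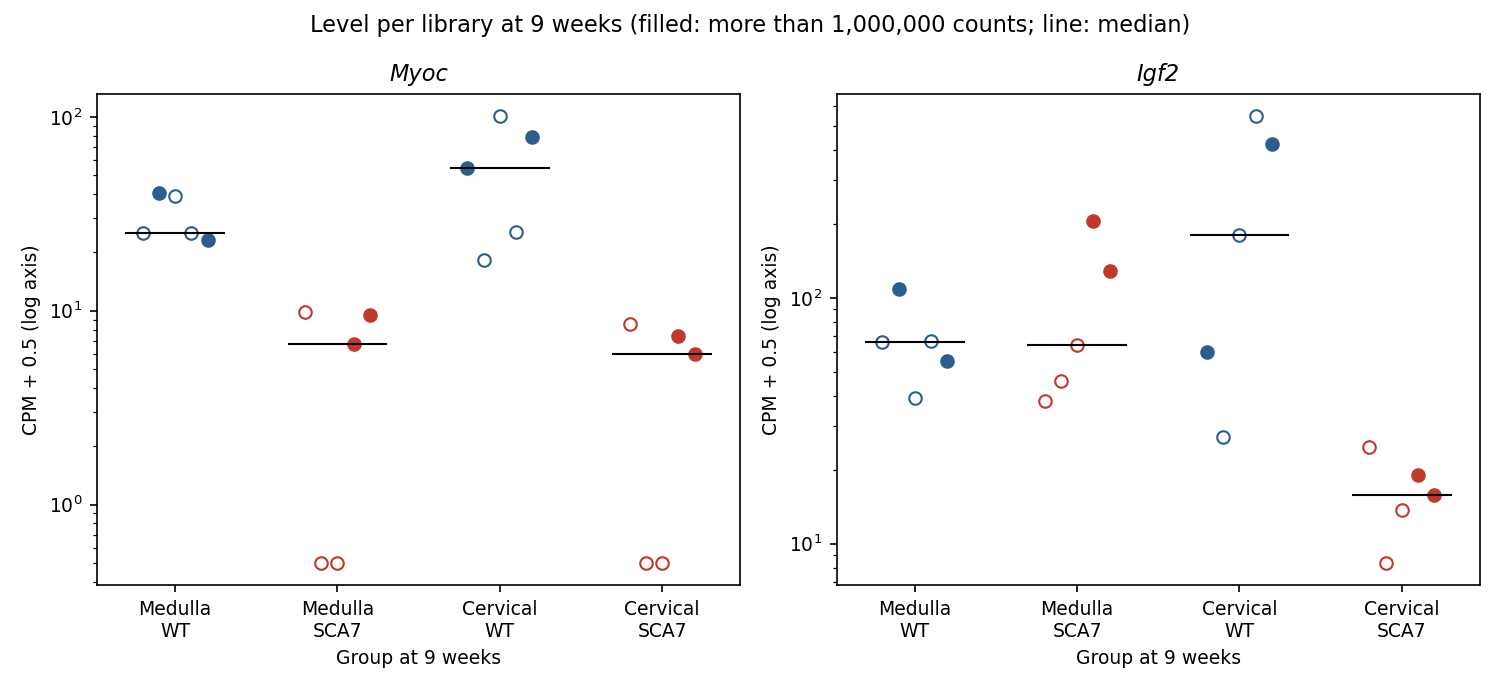
Level of *Myoc* (left) and *Igf2* (right) in each 9-week library (CPM + 0.5, log axis), by tissue and genotype; filled points are deep libraries and lines are medians. *Myoc* is below the WT libraries in every SCA7 library of both tissues, and *Igf2* is so in the cervical cord and overlaps in the medulla.

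The change with genotype differed between the tissues. With the mouse as a block, edgeR called the difference of the SCA7 change (cervical cord minus medulla) for 7 of the 10 genes, against 0.373% of the 19838 genes tested, and all 10 values were negative with a median of -3.82. The largest were *Prg4* at -8.83 (standard error 1.16, adjusted p = 1.86e-10) and *Slc22a6* at -6.48 (standard error 1.31, adjusted p = 0.000522), both on few SCA7 counts. *Igf2* was at -4.54 (standard error 0.47, adjusted p = 5.02e-18). The spread behind these edgeR p values is largely shared over all genes, so they can be smaller than the mice would give for a gene alone. *Lum*, *Col1a2* and *Myoc* were not called, and *Myoc* was at -1.29 (standard error 0.66, adjusted p = 1 by edgeR). Without the mouse as a block 2 were called, *Igf2* and *Prg4*. Without WT cervical replicates 4 and 5 only *Igf2* of the 10 was called (-3.09, standard error 0.59, adjusted p = 0.00262), and calls over all genes went from 74 to 8 (0.0406% of genes tested). Leaving out single libraries gave 2 to 9 calls, with 2 without either library of WT mouse 5 or of SCA7 mouse 4 and 3 without either library of SCA7 mouse 5. For these omissions and for the fit without the mouse as a block, calls over all genes are not given.

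Within WT mice at 9 weeks 4 of the 10 genes were higher in the cervical cord than in the medulla. These were the calls of edgeR with the mouse as a block, against 0.728% of the 18969 genes tested. They were *Igf2* (1.69, standard error 0.36, adjusted p = 0.00226), *Prg4* (2.85, adjusted p = 0.0308), *Col1a1* (1.93, adjusted p = 0.0199) and *Col1a2* (1.41, adjusted p = 0.0355). All 10 log2 fold changes were positive, with a median of 1.53. In the same mice the sum of the 9 genes without *Myoc* was 0.794, 0.419, 3.65, 7.41 and 6.10 times as high in the cervical cord as in the medulla for WT mice 1 to 5. It was thus higher in 3 mice and lower in 2. The p values above rest on a spread largely shared over all genes and do not measure this one. Only mouse 5 had deep libraries of both tissues. DESeq2 called 1 of the 10 and 151 of all genes, and the fit without the mouse none of the 10. The fit without WT cervical replicates 4 and 5 called none of the 10 and only 3 of 18658 genes (0.0161% of genes tested), with a median of 0.30 for the 10. Leaving out single libraries gave 0 to 4 calls, 0 without any of the libraries of mice 3, 4 and 5 or the cervical library of mouse 1, and 1 without its medulla library. For these omissions too, and for the fit without the mouse, calls over all genes are not given.

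Within SCA7 mice all 10 values had the opposite sign. The same test called 0 of the 10 genes and 0 of 19240 genes (0% of genes tested), with 7 of the 10 and 851 of all genes at an unadjusted p under 0.05. DESeq2 called 5 of the 10, *Igf2*, *Dcn*, *Slc6a13*, *Prg4* and *Ogn*, and 757 of all genes. All 10 log2 fold changes of cervical cord over medulla were negative, with a median of -2.32. They ranged from -6.05 for *Prg4* (standard error 0.63) to -0.26 for *Myoc* (standard error 0.41). In the SCA7 mice 1 to 5 the sum of the 9 genes was 0.312, 1.0001, 0.465, 0.209 and 0.326 times that of the medulla. Without either library of SCA7 mouse 2, in which the ratio was highest, 8 genes were called. Calls over all genes in those fits are not given, so the 8 cannot be set against them.

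At 5 weeks neither tissue gave a call among the 10 genes. In the medulla WT was sequenced only deep and SCA7 only shallow, and these cannot be told apart from genotype. There edgeR called 0 of 10 against 0.618% of the 18432 genes tested, and 1, *Slc6a13*, had an unadjusted p under 0.05. *Igf2* was at 122 and 177 CPM in WT and at 66.9 and 192 CPM in SCA7, and *Myoc* at 29.6 and 45.04 CPM in WT and at 0 and 17.4 CPM in SCA7. In the cervical cord 0 of the 8 genes tested and 0 of 17162 genes (0% of genes tested) were called, with 0 and 517 at an unadjusted p under 0.05, and *Slc22a6* and *Prg4* could not be tested. DESeq2 called 0 of the members in both tissues, against 639 of all genes in the medulla and 2 in the cervical cord.

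In the 5-week cervical cord *Igf2* was low in both genotypes and *Myoc* was not. *Igf2* was at 29.9 and 28.1 CPM in WT and at 21.4 and 20.9 CPM in SCA7, and *Myoc* at 89.6 and 55.1 CPM in WT and at 35.7 and 36.5 CPM in SCA7. In WT replicate 2, the deep library, *Slc22a6* had 0 counts and *Prg4* 1. The sum of the 9 genes without *Myoc* was lower in the cervical cord than in the medulla in all 4 mice, at 0.235 and 0.297 times the medulla in WT and 0.157 and 0.180 times in SCA7. The cervical sums were 8 counts in WT replicate 1 and 4 and 12 counts in SCA7 replicates 1 and 2.

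In the libraries labelled P8 medulla edgeR called 0 of the 10 genes and 0 of 20564 genes (0% of genes tested), and 1 of the 10, *Myoc*, and 298 of all genes had an unadjusted p under 0.05. DESeq2 called 0 of both. All 10 values of SCA7 over WT were negative, with a median of -1.63, and the WT libraries differed widely from each other. *Igf2* was at 79.9 and 583 CPM in WT and at 102 and 240 CPM in SCA7, *Col1a1* at 49.2 and 809 CPM in WT and at 90.3 and 636 CPM in SCA7, and *Myoc* at 41.0 and 29.8 CPM in WT and at 13.7 and 0 CPM in SCA7. The high WT library, replicate 2, also held 490 CPM of the skeletal muscle gene *Acta1* and 1295 CPM of *H19*, where replicate 1 held 8.44 and 53.5 CPM. The Schwann cell and nerve root list summed to 71.4 and 552 CPM in WT and to 75.9 and 1387 CPM in SCA7, highest in the same replicates 2. The part of tissue outside the cord in these levels was not tested.

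Labelled P8 cervical cord had 1 WT library and no test of genotype. *Igf2* was at 169 CPM in WT and at 118 and 368 CPM in SCA7, *Col1a1* at 97.5 CPM in WT and at 80.4 and 94.4 CPM in SCA7, and *Myoc* at 44.7 CPM in WT and at 24.8 and 28.3 CPM in SCA7. *Col1a1* and *Col1a2* were within a narrow range there, with *Col1a2* at 131 CPM in WT and at 124 and 113 CPM in SCA7. The WT value of *Myoc* lay above both SCA7 values, which rested on 8 and 3 counts.

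The type I collagen chains were called higher at P8 than at 9 weeks in all 3 comparisons within a tissue label. Among WT medulla labels edgeR called 3 of the 10 as higher at P8, against 12.2% of the 20797 genes tested, *Igf2* (1.96, adjusted p = 0.0420), *Col1a1* (4.49, standard error 0.80, adjusted p = 0.00463) and *Col1a2* (3.15, standard error 0.55, adjusted p = 0.00515). Among SCA7 medulla labels it called 2 against 1.48% of 19213 genes, *Col1a1* (4.63, adjusted p = 0.00125) and *Col1a2* (2.68, adjusted p = 0.00423). Among SCA7 cervical labels it called 4 of the 8 tested against 6.68% of 18613 genes, *Igf2* (3.82, adjusted p = 3.65e-07), *Myoc* (2.24, adjusted p = 0.0359), *Col1a1* (3.39, adjusted p = 0.000159) and *Col1a2* (1.82, adjusted p = 0.00365). *Slc22a6* and *Prg4* had negative values in both medulla comparisons and were not called. Against the other tissue label of 9 weeks their values were -2.76 and -3.58 for the WT medulla label, 2.25 and 2.35 for the SCA7 medulla label, and -8.00 and -8.92 for the SCA7 cervical label, and none was called.

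These P8 calls depended on the tissue label. Set against 9-week libraries of the other tissue label, the WT medulla label gave 1 call, *Col1a2* (2.14, adjusted p = 0.0377 by edgeR), against 4.99% of genes tested, and the SCA7 cervical label also 1, against 1.89%. The SCA7 medulla label gave 3, *Igf2*, *Col1a1* and *Col1a2*, against 8.41%. Without WT replicate 1 labelled P8 medulla 5 genes were called in WT, without SCA7 replicate 2 labelled P8 medulla 0 in SCA7, and without SCA7 replicate 1 labelled P8 cervical cord 2. Leaving out SCA7 replicate 2 of the 9-week medulla gave 4. Shares over all genes are not given for these fits with a library left out. Of the collagen and matrix list, which held 29 tested genes, 13 were called higher at P8 in the WT medulla label, where 12.2% of all genes were called in either direction. Against the 9-week libraries of the other tissue label 5 were called higher, where 4.99% of all genes were called.

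Over the 6 sets of tissue label and age, *Myoc* was the gene whose SCA7 libraries lay below every WT library in all 6. It shared this with 3 others of 21378 genes (0.0187% of genes), *Ndrg2*, *Ugt8a* and *Qdpr*, which are named after their values were seen. The other 9 genes did so in at most 2 of the 6 sets. The sets hold as few as 3 libraries, the values of *Myoc* in shallow libraries rest on 0 to 14 counts, and where SCA7 libraries are shallow and WT libraries deep a value of 0 counts lies below WT whatever the level.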

How the data were processed

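RNA-seq libraries of the medulla and cervical spinal cord were grouped by the genotype, tissue and age of their labels. The authors mapped reads to the mouse genome (mm10 in the submitters' processing notes), kept reads with a single location, and deposited raw counts per gene symbol, 1 table per library with no normalization. The aligner and the counter are not given in the sources used here. No column of these tables was without a sample (0 unused). The counts were used as deposited.

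Counts were tested with edgeR 4.0.16 (glmQLFit and glmQLFTest with the bias-adjusted deviance, TMM normalization) in R 4.3.3, over genes reaching 10 counts in 1 or more of the libraries compared, with Benjamini-Hochberg adjustment over all genes tested and a threshold of 0.05. Genotypes were compared within a tissue and age without a block, and tissues with the mouse as a block, since the labels tie both libraries to a mouse. Standard errors given with edgeR values are the absolute log2 fold change divided by the square root of the quasi-likelihood F statistic. They are thus derived from the test and were not estimated separately. Replicate numbers did not pair the genotypes. The correlation of deviations between same-numbered WT and SCA7 libraries ran from -0.33 to 0.61 in the cervical cord and from -0.39 to 0.64 in the medulla. P values of the genotype and age comparisons measure the spread between mice. With the mouse as a block they set the difference between tissues against its variation from mouse to mouse, with a spread largely shared over all genes. They can therefore be too small for genes that vary more between mice than most. In WT mice at 9 weeks the summed level of the 9 genes without *Myoc* was 0.419 to 7.41 times as high in the cervical cord.

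Correlations used log2(TMM CPM + 0.5). The members and lists were chosen with earlier results of these data known. Genes named beyond the 10 are the 8 most alike in each set of libraries and, of each list, genes past the threshold or with the highest counts, up to 8. *Hoxc6*, *Acta1*, *Ndrg2*, *Ugt8a* and *Qdpr* were named after their values were seen. Some marker genes are not reported here.

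The test was checked on simulated counts with the real depths, drawn independently for each gene with the same dispersion for all genes and no effect of the mouse. With 200 changed genes it called 156 of 18690 genes in the 9-week cervical comparison, 150 of them changed, and 151 of 18476 in the WT tissue comparison, 146 of them changed. Wrong calls made up between 0% and 9.14% of calls over the comparisons, highest in the 9-week medulla. Alternatives were DESeq2 1.42.0, other size factors, library totals, other filters, deep or shallow libraries alone, the replicate number or no mouse as a block, and leaving out each library. Added after the data were seen were the edgeR settings of earlier releases, P8 libraries against the other tissue label, and the fit without the 2 WT cervical libraries highest in Schwann cell genes. All 21 pairs of libraries of a group and depth differed beyond counting noise (chi-square per degree of freedom at least 1.12). Exon lengths are from GENCODE vM21. Poisson intervals (95%) and limits of 0 counts cover counting error only. Versions of Python (3.11.15), pandas (2.3.3), numpy (2.4.6), scipy (1.17.1) and matplotlib (3.10.9) were fixed.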

Additional observations from a re-analysis of the deposited data

Results flagged for a closer look

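The change of SCA7 over WT differed between the cervical cord and the medulla for 7 genes by edgeR with the mouse as a block, where the value is the cervical minus the medulla log2 fold change. It was -4.54 for *Igf2*, -2.86 for *Dcn*, -4.40 for *Slc6a13*, -6.48 for *Slc22a6*, -8.83 for *Prg4*, -4.66 for *Ogn* and -2.87 for *Col1a1*. The adjusted p ranged from 5.02e-18 for *Igf2* to 0.0201 for *Col1a1*, with a spread largely shared over all genes. Only *Igf2* was called without WT cervical replicates 4 and 5.

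*Lum* in WT replicate 1 of the 9-week medulla, at 16.4 CPM, lay far from the other 4 libraries, the nearest of which was at 3.68 CPM (Dixon's ratio 0.776 against a limit of 0.71). It rests on 2 counts. It was 1 of 44 groups of values examined, where chance gives about 1 in 20. That library also held 320 CPM of the Schwann cell list, while the sum of the 9 genes without *Myoc* in it, 173 CPM, lay within the range of the other WT medulla libraries.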

How the results depend on the processing

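Calls over all genes also differed between settings and are mostly not given in this section, so these counts are not results about the 10 genes alone. Of the 10 genes in the 9-week medulla, 0 were called, and 1 with DESeq2, 2 in deep libraries alone and 2 with earlier edgeR settings. In the cervical cord 9 became 5 with no filter, 0 in deep libraries alone (where no gene at all was called and 3084 had an unadjusted p under 0.05), 1 of 4 testable in shallow libraries alone and 3 without WT replicates 4 and 5. For WT cervical over medulla 4 became 1 with DESeq2, library totals or shallow libraries alone, 8 with earlier edgeR settings and 0 without those WT libraries. For SCA7 cervical over medulla 0 became 5 with DESeq2, where calls over all genes went from 0 to 757. It became 8 in deep libraries alone and 8 with earlier settings. For the difference between tissues 7 became 3 with DESeq2, 0 in shallow libraries alone and 1 without those WT libraries. For P8 over 9 weeks, 3 in the WT medulla label became 0 in deep libraries alone and 1 against the other tissue label, 2 in the SCA7 medulla label became 8 and, with earlier settings, 5, and 4 in the SCA7 cervical label became 1 against the other label. The median correlation of pairs was 0.318 in shallow libraries alone. The cause of these changes was not tested.

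With the replicate number as a block, which the labels do not make a pairing, 10 genes were called in the cervical cord and 0 in the medulla, where *Dcn* was at -0.10. With no replicate block for the mouse, 0 genes were called for WT tissues, 3 for SCA7 tissues and 2 for the difference between tissues.

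Leaving out single libraries gave 0 to 1 calls in the medulla, 4 to 10 in the cervical cord, 0 to 4 and 0 to 8 for WT and SCA7 tissues, 2 to 9 for the difference, 2 to 5, 0 to 4 and 2 to 4 for P8 over 9 weeks in the order above, and a median correlation from 0.636 to 0.720. At 5 weeks and in the P8 genotype comparison it gave 0.

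Signs turned only where a gene was not called. In the medulla, *Slc22a6* was at 0.032 in deep libraries alone and 0.0022 with earlier settings, *Col1a1* at 0.091 and 0.12, and *Col1a2* at -0.047 in deep libraries. Leaving out libraries gave -0.42 to 0.40 for *Dcn*, -0.51 to 0.25 for *Col1a1* and -0.14 to 0.57 for *Col1a2*. For WT cervical over medulla, without WT replicates 4 and 5, *Dcn* was at -0.35, *Slc22a6* at -4.86, *Ogn* at -1.42 and *Lum* at -3.04, and leaving out libraries gave -0.70 to 1.73 for *Slc22a6*, -0.11 to 2.57 for *Ogn* and -1.20 to 2.10 for *Lum*. For SCA7 tissues it gave -0.61 to 0.12 for *Myoc*. In the 9-week cervical cord no member changed sign under any alternative run. A minimum of 10 counts in every library left no member testable in 10 of the 11 comparisons, all but the P8 medulla.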
